A study of Mus musculus with 16 samples.

Results

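The immediate early genes described here are Fos, Fosb, Jun, Junb, Egr1, Atf3, Ier2, Dusp1, Nr4a1 and Zfp36, chosen by name. Of these 10 genes, 9 had a row in a table of 13430 genes from mouse kidney, and Fosb was not analysed here. All 9 passed the filter on low values that left 12943 genes for testing. RNA came from a 3 mm horizontal slice of the mid-kidney, and 16 female C57BL/6 mice, 2 to 3 months old, gave 1 library each. The mice were IRR(-/-), labelled as knockout for the insulin receptor-related receptor (gene Insrr), or wild type, and 4 of each genotype drank 250 mM NaHCO3 at pH 8.5 for 7 days or water. This made 4 groups, namely IRR(-/-) on bicarbonate, IRR(-/-) on water, wild type on bicarbonate and wild type on water. All 16 mice had fasted for 12 h with free access to their drink, the controls included. The labels give neither the construct of the knockout allele nor whether the wild-type mice were littermates.

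Immediate early genes are transcribed within minutes of a stimulus from factors that already sit in the cell, without new protein synthesis, and their RNAs are short-lived. Growth factors, cyclic AMP, hypoxia, stretch and the handling of tissue all induce them, mainly through mitogen-activated protein kinases (MAPKs) that act on serum response factor and its ternary complex partners, and through kinases that phosphorylate CREB. Fos, Jun, Junb and Atf3 encode bZIP proteins that pair in AP-1 and related dimers, Egr1 and Nr4a1 encode a zinc finger factor and an orphan nuclear receptor, and Dusp1 and Zfp36 encode proteins that shut the response down. The insulin receptor-related receptor is a receptor tyrosine kinase that is activated by alkaline pH and is found in the kidney in intercalated cells of the collecting duct, and receptors of its family signal to MAPKs.

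The knockout label was checked on Insrr itself. It had 3.31 to 4.11 RPKM in the 8 IRR(-/-) libraries and 4.20 to 6.73 RPKM in the 8 wild-type libraries. Its RNA was thus lower but present. RPKM is reads scaled to gene length and to a library size, and the sources do not say how that size was set. The genotypes also differed in bulk properties of their libraries. Mitochondrial genes held 82.6% to 84.9% of the summed RPKM in IRR(-/-) against 69.6% to 74.2% in wild type. The 10 immune cell markers in the table, of 14 listed, summed to 173 to 222 RPKM in IRR(-/-) and 112 to 165 RPKM in wild type, and none of the 10 was at 0 in any library. The sum was carried by the MHC class II genes Cd74, at 102 RPKM in IRR(-/-) and 69 RPKM in wild type on water, and H2-Ab1, at 54.6 RPKM in IRR(-/-) and 23 RPKM in wild type on water. The list did not move one way, since averaged over drinks 3 of the 10 (H2-Ab1, Cd74 and Cd68) were higher, 1 (Lyz2) was lower and 6 did not pass, with a median log2 difference of -0.05, beside -0.03 over all genes tested. The depth of the libraries is unknown, because the values do not give whole reads. Wild type on bicarbonate replicate 3 stood apart, with 742 RPKM of the tubule gene Kap, where replicates 1, 2 and 4 of that group had 7150 to 9260 RPKM.

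The RefSeq promoter windows on GRCm38.p6, from 250 bases before to 50 bases after the transcript start that RefSeq gives, covered 8 of the 10 genes. Those of Atf3, Dusp1, Nr4a1 and Zfp36 lie inside the longer GENCODE spans of these genes, not at their outer ends. The motif TGACG, the core of the cyclic AMP response element, was searched on both strands and lay in 6 of the 8 windows, against 20.9% of all windows and 29.4% of those of tested genes. The windows of 4 genes are shown because Dusp1 was the member that passed the genotype test, Fos and Nr4a1 were among the most variable, and Junb belonged to the pair that moved together most closely. TGACG and its reverse complement are in capitals, and each window runs 5′ to 3′ along the gene's own strand.

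Dusp1, chr17:26508423-26508722, minus strand: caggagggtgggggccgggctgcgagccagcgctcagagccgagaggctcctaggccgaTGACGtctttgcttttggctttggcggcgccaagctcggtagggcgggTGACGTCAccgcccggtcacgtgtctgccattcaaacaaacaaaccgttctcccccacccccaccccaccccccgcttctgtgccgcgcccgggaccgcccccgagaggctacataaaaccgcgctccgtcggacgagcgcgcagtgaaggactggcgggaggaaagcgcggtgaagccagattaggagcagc
Fos, chr12:85473640-85473939, plus strand: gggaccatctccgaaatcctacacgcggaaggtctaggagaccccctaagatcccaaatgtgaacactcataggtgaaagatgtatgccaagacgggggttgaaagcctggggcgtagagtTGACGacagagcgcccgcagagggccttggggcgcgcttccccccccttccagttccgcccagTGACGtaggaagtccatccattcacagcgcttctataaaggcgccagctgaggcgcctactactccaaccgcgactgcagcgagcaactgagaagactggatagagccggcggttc
Nr4a1, chr15:101266596-101266895, plus strand: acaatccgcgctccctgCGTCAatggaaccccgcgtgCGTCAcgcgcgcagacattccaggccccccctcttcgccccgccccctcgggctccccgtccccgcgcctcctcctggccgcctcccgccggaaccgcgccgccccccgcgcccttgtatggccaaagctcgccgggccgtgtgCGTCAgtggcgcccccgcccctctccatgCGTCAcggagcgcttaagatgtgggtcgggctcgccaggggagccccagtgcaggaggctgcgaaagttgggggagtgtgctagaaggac
Junb, chr8:84978699-84978998, minus strand: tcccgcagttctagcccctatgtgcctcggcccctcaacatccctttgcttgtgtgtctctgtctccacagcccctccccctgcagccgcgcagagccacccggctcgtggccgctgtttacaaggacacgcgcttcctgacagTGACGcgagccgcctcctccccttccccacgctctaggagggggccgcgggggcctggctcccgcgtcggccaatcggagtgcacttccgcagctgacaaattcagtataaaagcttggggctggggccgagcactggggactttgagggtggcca

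Dusp1 held the full palindrome TGACGTCA, which makes 2 of its 3 TGACG matches the same site read on both strands. That palindrome was in 1 of the 8 windows, against 1.80% of all windows and 2.8% of those of tested genes. Nr4a1 had 4 TGACG matches, Fos had 2 and Junb had 1, while Jun and Zfp36 had none in these windows. The motif TATAAA was in the Fos and Junb windows, 2 of 8, against 13.6% of all windows and 7.38% of those of tested genes. It began at position -33 from the RefSeq start in Fos but at position 1, the start itself, in Junb. The GENCODE span of Junb ends at 84978718, inside this window and downstream of the RefSeq start. The position in Junb therefore depends on the start used. The Sp1 motif GGGCGG was in 7 of 8, against 35.9% of all windows and 60.9% of those of tested genes. The CArG box, the sequence bound by serum response factor, was in 1 window, that of Zfp36. It was in 1.64% of all windows and 1.25% of those of tested genes. Sequence more than 250 bases before the start was not searched, and Egr1 and Ier2 had no window. The AP-1 motif TGANTCA was in 0 of 8, against 7.79% of all windows and 5.28% of those of tested genes. TGACGTCA contains TGACG on both strands, and the other motifs were counted separately. A match describes the letters of the window only.

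As a group the immediate early genes were lowly to moderately expressed. RPKM is per length, so levels may be set beside each other. Over the 16 libraries Dusp1 was highest at 22.4 ± 6.47 RPKM (SD, n = 16 for all 9 genes), above 73.6% of the genes in the table. Jun followed at 9.61 ± 1.65 RPKM, then Egr1 at 4.90 ± 2.86, Junb at 4.78 ± 1.12 and Ier2 at 3.36 ± 0.659 RPKM, where the median gene of the table was at 8.9 RPKM. Nr4a1 was at 1.37 ± 0.873, Zfp36 at 1.26 ± 0.428, Fos at 1.19 ± 0.806 and Atf3 at 0.692 ± 0.451 RPKM. Neighbours among these 4 were not ranked, because their means differed by less than the larger of their SDs over mice. Zfp36 and Atf3, which are not neighbours, differed by more than either SD. Egr1 was likewise not ranked against Junb or Ier2, whose means lay within its SD. No order was tested within libraries. Atf3 reached 0.5 RPKM in 9 of the 16 libraries.

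**Figure D1:**
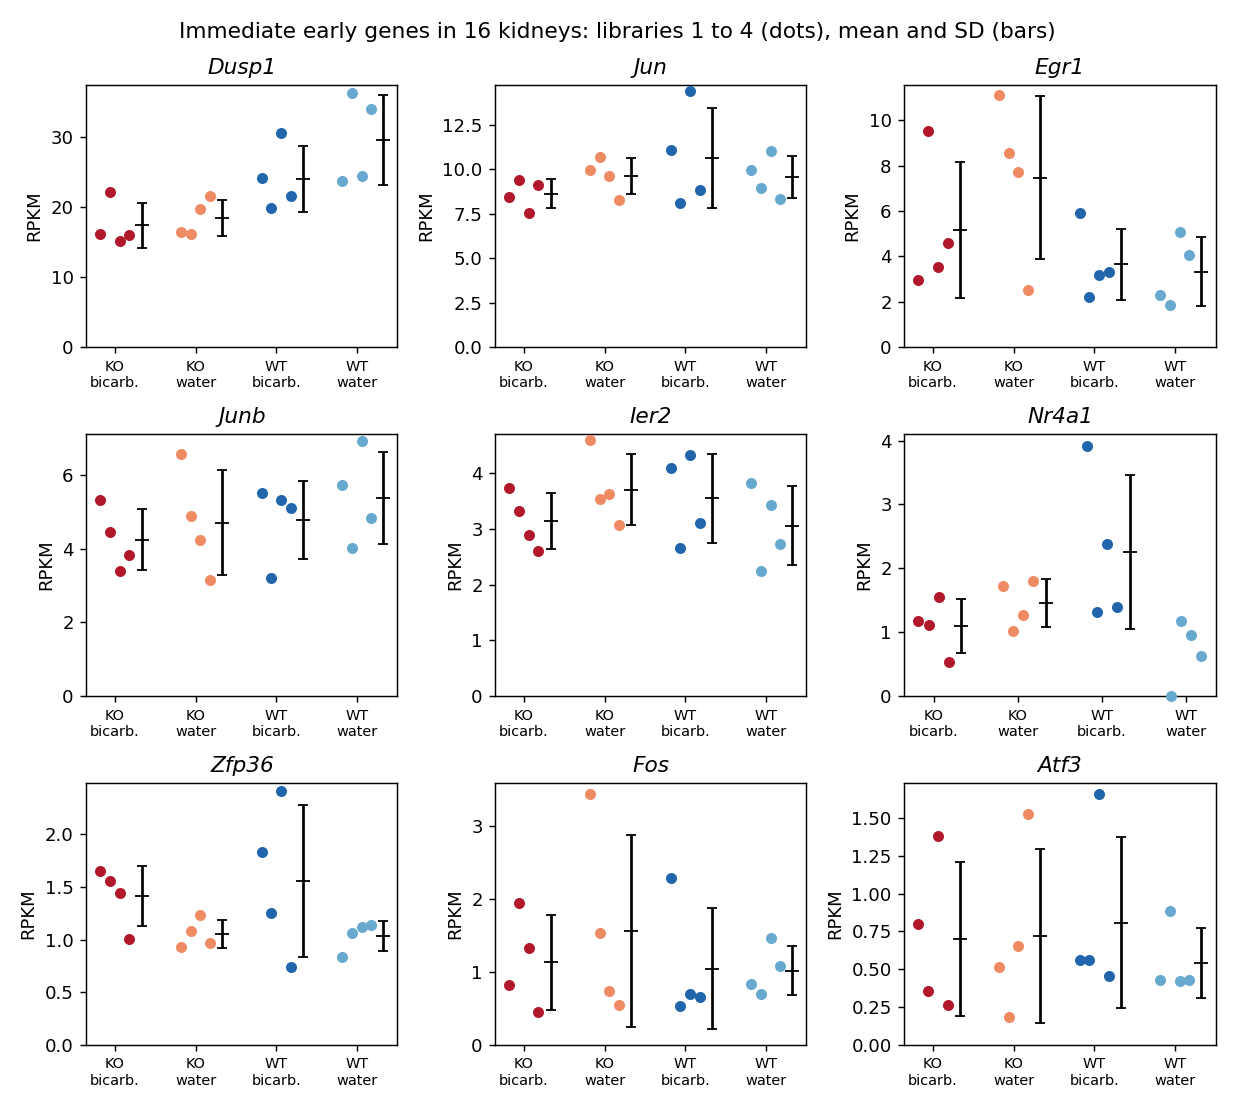
RPKM of 9 immediate early genes in each of the 16 kidney libraries, 1 panel per gene with its own axis from 0; dots are the 4 mice of a group in replicate order from left to right, and the black mark beside them is the mean with its SD (left out for Nr4a1 in wild type on water, where 1 library is listed at 0). All 4 IRR(-/-) values of Dusp1 on water lie under all 4 wild-type values on water, and the wild-type bicarbonate values of Nr4a1 lie above those on water; the other groups compared overlap.

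Dusp1 encodes a nuclear phosphatase that removes phosphate from ERK, JNK and p38. It lies on chromosome 17 from 26505590 to 26562128 on the minus strand (GENCODE M21, GRCm38). In IRR(-/-) mice on water it had 16.4, 16.2, 19.7 and 21.6 RPKM, against 23.7, 36.4, 24.5 and 34.0 RPKM in wild type on water. The groups did not overlap, and every IRR(-/-) mouse was under every wild-type mouse. On bicarbonate it had 16.2, 22.2, 15.2 and 16.0 RPKM in IRR(-/-) mice, against 24.2, 19.9, 30.7 and 21.6 RPKM in wild type, where 1 IRR(-/-) mouse lay among the wild-type values.

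Dusp1 fell in IRR(-/-) kidneys on water to 18.5 ± 2.61 RPKM (SD, n = 4), against 29.7 ± 6.49 RPKM (n = 4) in wild type. The log2 difference was -0.67 ± 0.17 (SE), and the adjusted p from limma was 0.0123. The test was run on log2(RPKM + 0.1), two-sided, with Benjamini-Hochberg adjustment over the 12943 genes. The added 0.1 shrinks the differences of low genes, but a library listed at 0 can enlarge them, as given for Nr4a1 below. Each p-value sets a difference against the spread between mice within groups. That spread was pooled over the 4 groups, with 12 residual degrees of freedom, and moderated across genes. Dusp1 was the 1 member of 9 that passed at 0.05, where 21.9% of all genes passed in either direction and 11.8% passed as lower, and it was the 1 member whose groups did not overlap, as in 23.8% of all genes. Dusp1, Egr1 and Nr4a1 were the 3 members with a raw p under 0.05 on water, as 34.3% of all genes had. On bicarbonate Dusp1 averaged 17.4 ± 3.24 RPKM in IRR(-/-) and 24.1 ± 4.73 RPKM in wild type. That difference of -0.46 ± 0.17 missed the threshold (adjusted p = 0.0764 by limma). Over its alternatives it ran from -0.58 to -0.34, with an adjusted p from 0.0365 to 0.197 (limma). The lowest adjusted p came without IRR(-/-) on bicarbonate replicate 2. Averaged over both drinks the difference was -0.56 ± 0.12 (adjusted p = 0.0023 by limma), and again Dusp1 was the 1 member called, against 33.7% of all genes. Egr1 and Dusp1 were the 2 members with a raw p under 0.05 there, as 42.9% of all genes had. The difference between the drinks in the genotype effect was 0.20 ± 0.24 (adjusted p = 0.845 by limma).

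In bulk tissue, fewer cells of a type and less RNA per cell cannot be told apart. The mitochondrial share and the MHC class II genes of the immune list moved with genotype as given above, and their part in the Dusp1 difference was not tested. Dusp1 overlaps Ergic1, a gene of the early secretory pathway on the opposite strand, and no label says whether reads were counted by strand. Ergic1 moved the other way, with 44.1 ± 2.35 RPKM in IRR(-/-) and 33.4 ± 2.64 RPKM in wild type on water (log2 difference 0.40, adjusted p = 0.00101 by limma).

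Egr1, the zinc finger factor on chromosome 18 from 34859823 to 34864984 (plus strand), had 11.1, 8.54, 7.73 and 2.54 RPKM in IRR(-/-) mice on water, against 2.32, 1.86, 5.09 and 4.07 RPKM in wild type on water. In IRR(-/-) mice, 3 of 4 were above all 4 wild-type mice, and replicate 4 lay among them. On bicarbonate it had 2.94, 9.54, 3.55 and 4.59 RPKM in IRR(-/-), against 5.90, 2.21, 3.17 and 3.31 RPKM in wild type, and the groups overlapped. The log2 difference on water was 1.07 ± 0.48 with a raw p of 0.0399 and an adjusted p of 0.124 (limma), so it did not pass. Without IRR(-/-) on water replicate 4 it was 1.52 with an adjusted p of 0.0212, and over its alternatives the adjusted p ran from 0.0212 to 0.292. Averaged over drinks it was 0.75 ± 0.34 (adjusted p = 0.102 by limma, 0.0185 without that library). The call for Egr1 therefore turned on 1 of the 16 libraries.

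Nr4a1, also called Nur77, lies on chromosome 15 from 101254269 to 101274795 (plus strand). In IRR(-/-) it had 1.18, 1.11, 1.55 and 0.527 RPKM on bicarbonate, against 1.72, 1.01, 1.27 and 1.80 RPKM on water, and those groups overlapped. In wild type it had 3.91, 1.32, 2.38 and 1.4 RPKM on bicarbonate, against 0, 1.17, 0.947 and 0.626 RPKM on water, where replicate 1 is listed at 0. The wild-type groups did not overlap, as in 5.86% of all genes. The wild-type difference of 1.95 ± 0.63 on the log2 scale had a raw p of 0.00773 and an adjusted p of 0.223 (limma), so it did not pass. It was 1.12 without the library listed at 0 and 0.94 with a pseudocount of 1, and its adjusted p ran from 0.157 to 0.487 over the alternatives. The interaction was -2.38 ± 0.89 (adjusted p = 0.551 by limma) and -1.55 without that library. On water the difference of IRR(-/-) from wild type was 1.44 ± 0.63 (adjusted p = 0.12 by limma) and 0.62 without that library.

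The AP-1 genes showed no change that passed in any of the 7 comparisons. Fos, on chromosome 12 from 85473890 to 85477273 (plus strand), had 0.816, 1.95, 1.33 and 0.444 RPKM in IRR(-/-) on bicarbonate and 3.44, 1.54, 0.745 and 0.541 RPKM in IRR(-/-) on water. In wild type it had 2.29, 0.533, 0.692 and 0.660 RPKM on bicarbonate and 0.831, 0.697, 1.46 and 1.08 RPKM on water. Within each group the highest Fos library was 2.1 to 6.37 times the lowest. The Fos means in that order of groups were 1.14 ± 0.654, 1.57 ± 1.32, 1.04 ± 0.832 and 1.02 ± 0.337 RPKM (SD, n = 4 each), and the 4 groups overlapped. Jun, on chromosome 4 from 95049034 to 95052222 (minus strand), had 7.56 to 9.39 RPKM in IRR(-/-) on bicarbonate, 8.25 to 10.7 in IRR(-/-) on water, 8.13 to 14.4 in wild type on bicarbonate and 8.31 to 11 RPKM in wild type on water. Its 14.4 RPKM was in wild type on bicarbonate replicate 3, the library that stood apart.

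Junb, on chromosome 8 from 84974484 to 84978718 (minus strand), had 3.40 to 5.31 RPKM in IRR(-/-) on bicarbonate, 3.14 to 6.56 in IRR(-/-) on water, 3.21 to 5.51 in wild type on bicarbonate and 4.02 to 6.93 RPKM in wild type on water. It overlaps the peroxiredoxin gene Prdx2 on the opposite strand, at 73.7 RPKM in IRR(-/-) and 95.5 RPKM in wild type on water (log2 difference -0.38, adjusted p = 0.00248 by limma). Atf3, a stress-induced bZIP repressor on chromosome 1 from 191170296 to 191218039 (minus strand), had 0.181 to 1.53 RPKM in the 8 IRR(-/-) libraries and 0.419 to 1.66 RPKM in the 8 wild-type libraries. The adjusted p for Fos, Jun, Junb and Atf3 was 0.259 or more in every comparison (limma).

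Ier2, a short nuclear protein of the early response, lies on chromosome 8 from 84661331 to 84662852 (minus strand). It had 2.60 to 3.74 RPKM in IRR(-/-) on bicarbonate, 3.07 to 4.59 in IRR(-/-) on water, 2.65 to 4.32 in wild type on bicarbonate and 2.25 to 3.83 RPKM in wild type on water. Zfp36, which encodes tristetraprolin, a protein that binds AU-rich elements and speeds the decay of short-lived RNAs, lies on chromosome 7 from 28376784 to 28380253 (minus strand). It had 1.65, 1.56, 1.44 and 1.01 RPKM in IRR(-/-) on bicarbonate, against 0.932, 1.08, 1.23 and 0.968 RPKM in IRR(-/-) on water. In wild type it had 1.83, 1.25, 2.41 and 0.739 RPKM on bicarbonate, against 0.831, 1.06, 1.12 and 1.14 RPKM on water. In each genotype 3 of 4 bicarbonate mice were above all 4 water mice. The difference averaged over genotypes, 0.41 ± 0.19, had a raw p of 0.0517 and an adjusted p of 0.447 (limma), so it did not pass.

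None of the 9 genes passed the threshold for bicarbonate loading (limma). In IRR(-/-) 0 of 9 passed, where 0.0232% of all genes did. There, 2 of 9 differences were above 0, against 53.2% of all genes, and 0 had a raw p under 0.05, as 7.99% of genes had. In wild type 0 of 9 passed, where 0.139% of all genes did. There, 6 of 9 differences were above 0, against 48.6% of all genes, and 1 member, Nr4a1, had a raw p under 0.05, as 12.0% of genes had. The median difference of the 9 was -0.16 in IRR(-/-) and 0.15 in wild type, beside 0.01 and -0.01 over all genes tested. The interaction passed for 0 of 9 (0.0155% of all genes), with a raw p under 0.05 for 1 (8.19% of all genes). The response averaged over genotypes passed for 0 of 9 (0.440% of all genes), with a raw p under 0.05 for 0 (11.3% of all genes). On bicarbonate the genotypes differed in 0 of 9, where 18.4% of all genes passed, and 1, Dusp1, had a raw p under 0.05, as 31.4% of all genes had. These comparisons share groups, so their counts are not independent.

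**Figure D2:**
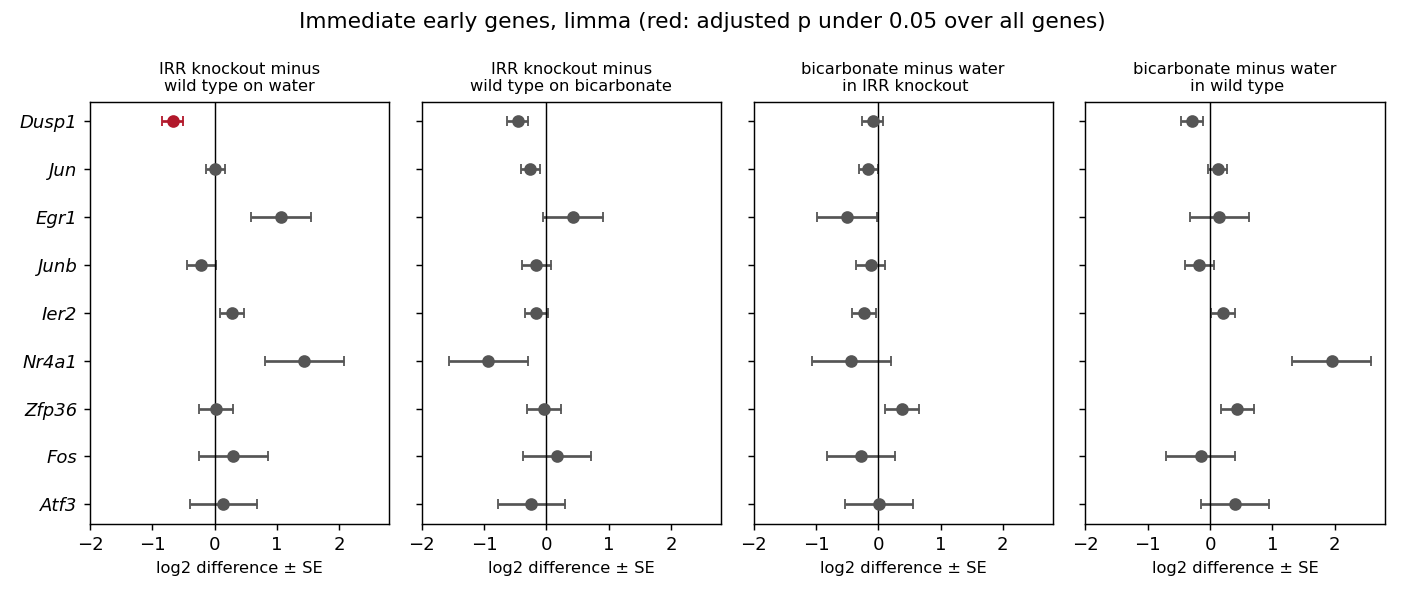
Log2 difference with its SE (limma, n = 4 mice per group) for each of 9 immediate early genes in 4 comparisons, from left IRR(-/-) minus wild type on water, the same on bicarbonate, and bicarbonate minus water in IRR(-/-) and in wild type. The red point, Dusp1 on water at -0.67, is the 1 of 36 points with an adjusted p under 0.05, and the widest bars belong to Nr4a1, Fos, Atf3 and Egr1.

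The immediate early genes varied between mice of 1 group more than most genes. The SD of log2(RPKM + 0.1) around the group means was 0.98 for Nr4a1, 0.84 for Fos, 0.82 for Atf3 and 0.73 for Egr1. The Nr4a1 value includes wild type on water replicate 1, listed at 0, which entered as -3.32. Its SD without that library was not computed, so its rank here may rest on that library. It was 0.39 for Zfp36, 0.35 for Junb, 0.28 for Ier2, 0.26 for Dusp1 and 0.23 for Jun. All 9 were above the median of 0.21 over all genes tested. Low genes vary more, so each was also set beside the 500 genes nearest to it in level, and all 9 were above the median of those, Zfp36 and Ier2 by little, being more variable than 51.4% and 56.4% of them. Egr1 stood out furthest, being more variable than 95.0% of the genes of its level, followed by Nr4a1 with 89.6%, Fos with 84.6% and Dusp1 with 84.2%. Of 51 other immediate early and primary response genes tested, 35 were above the median of all genes, and their median SD was 0.26.

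**Figure D3:**
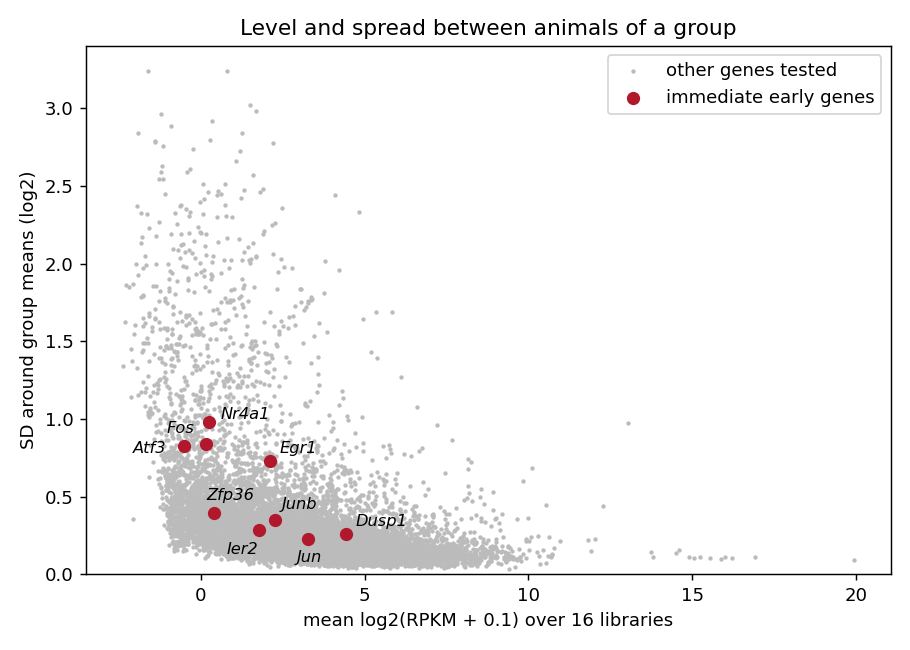
SD around the 4 group means (log2 scale) against mean log2(RPKM + 0.1) over 16 libraries for the 12943 genes tested, with the 9 immediate early genes in red. Nr4a1, Fos, Atf3 and Egr1 lie between 0.73 and 0.98, above most genes of their level. Zfp36, Junb, Ier2, Jun and Dusp1 lie between 0.23 and 0.39. The point of Nr4a1 includes a library listed at 0.

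Pairs of members were compared for whether mice high for 1 gene were also high for the other. The deviations of each gene from its group means were correlated over the 16 libraries for the 36 pairs, and 25 had a Pearson's r above 0, with a median of 0.32. These deviations share a library and its normalisation. Pairs of other genes were not counted, so there is no share to set beside the 25 of 36. Junb and Ier2, both on chromosome 8, gave the highest value, r = 0.85 (permutation within groups, p = 0.00023, adjusted over 36 pairs 0.00828) and Spearman's rho = 0.82 (adjusted p = 0.0259), with r = 0.81 without the 2 libraries farthest out for Junb. This was the 1 pair of 36 that passed. Fos and Egr1 came next with r = 0.76 (permutation p = 0.00334, adjusted 0.0601), rho = 0.71 (adjusted p = 0.114) and r = 0.70 without 2 libraries, which did not pass. Fos with Junb, Egr1 with Junb, and Jun with Ier2 had r of 0.63, 0.65 and 0.67, each with an adjusted p of 0.131. Atf3 went the other way from Egr1 (r = -0.59, adjusted p = 0.189), and Dusp1 had r of -0.10 with Fos and -0.01 with Egr1.

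**Figure D4:**
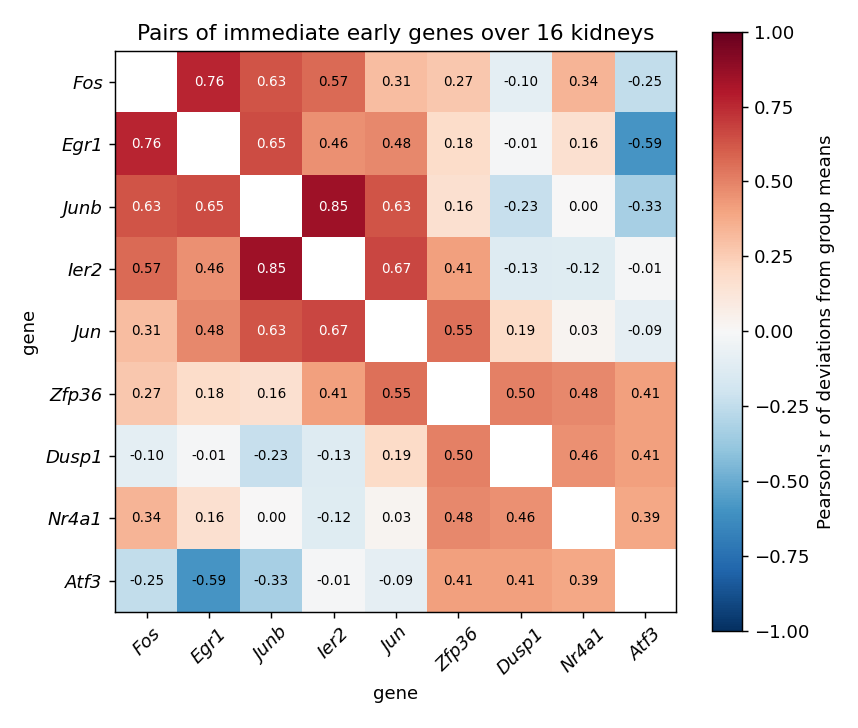
Pearson's r between the deviations from group means of each pair of 9 immediate early genes over 16 libraries, red above 0 and blue under 0 on a scale of -1 to 1. Among themselves Fos, Egr1, Junb, Ier2 and Jun have values between 0.31 and 0.85. Dusp1, Nr4a1 and Atf3 have values between -0.59 and 0.46 with them and with each other. Zfp36 has values between 0.16, with Junb, and 0.55, with Jun.

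The mean standardised deviation of the 9 genes was highest in wild type on bicarbonate replicates 3 and 1, at 0.88 and 0.67, and lowest in replicate 2 of the same group, at -0.93. In the other groups it lay between -0.62 and 0.53. Of the 12934 genes that are not members, those whose deviations were most like this mean over the 16 libraries were Rpl24 (r = 0.89), Eif3d (0.85), Ppan (0.85), Zfp318 (0.81) and Mrpl52 (0.81), and then Zfp511, Rps23, Nme7, Gm12216 and Nadk with r from 0.80 to 0.77. Rpl24, Rps23 and Mrpl52 encode ribosomal proteins and Eif3d a subunit of a translation initiation factor. Among those furthest from it were Inpp1 (-0.88), Abcc9 (-0.86), Chrna4 (-0.82) and Hnrnpu (-0.81). The 51 other immediate early genes had a median r of 0.15 with it, and 2 of them, Dusp5 at 0.64 and Ppp1r15a at 0.52, were above 0.5, beside 4.83% of all genes that are not members. Likeness here is a description with no test.

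The wider early response was read from a list of 60 other immediate early and primary response genes, of which 52 were in the table and 51 were tested. Bicarbonate loading passed the threshold for 0 of 51 in IRR(-/-), where 0.0232% of all genes passed, and for 0 of 51 in wild type, where 0.139% did (limma). Raw p-values were under 0.05 for 2 of 51 in IRR(-/-), beside 7.99% of all genes, and for 9 of 51 in wild type, beside 12.0% of all genes. Those with the smallest p in wild type were the polo-like kinase gene Plk3, at 12.7 RPKM on bicarbonate and 5.57 RPKM on water (log2 difference 1.13 ± 0.32, adjusted p = 0.162), and the bZIP factor gene Cebpb, at 7.37 RPKM on bicarbonate and 4.23 RPKM on water (0.80 ± 0.23, adjusted p = 0.164). The median difference of the 51 was 0.05 in IRR(-/-) and 0.13 in wild type, beside 0.01 and -0.01 over all genes.

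Between genotypes, averaged over drinks, 8 of the 51 were higher in IRR(-/-), 7 were lower and 36 did not pass, where 15.1% of all genes were higher and 18.5% were lower. Zfp36l1, a relative of Zfp36 that also binds AU-rich elements, rose to 66.2 ± 4.01 RPKM in IRR(-/-) on water against 37.4 ± 4.87 RPKM in wild type, and to 69.4 ± 2.44 RPKM in IRR(-/-) on bicarbonate against 34.3 ± 3.79 RPKM in wild type (mean ± SD of 4 mice). Its averaged log2 difference was 0.93 ± 0.07 (adjusted p = 1.27e-07 by limma), whereas that of Zfp36 was -0.01 ± 0.19 (adjusted p = 0.977). The clock gene Per1 (0.52 ± 0.08, adjusted p = 0.000209) and the CBP-binding gene Cited2 (0.60 ± 0.11, adjusted p = 0.000478) also rose, and Ier5, which shares a domain with Ier2, fell by 0.68 ± 0.10 (adjusted p = 0.000144). Looked up after their values were seen, 2 other MAPK phosphatase genes were lower as Dusp1 was. These were the ERK phosphatase gene Dusp6 at -0.52 ± 0.11 (adjusted p = 0.0023 by limma) and Dusp8 at -0.85 ± 0.23 (adjusted p = 0.0114). Dusp8, with a mean of 0.783 RPKM, passed in neither drink alone (adjusted p = 0.0999 on water and 0.0737 on bicarbonate by limma). Dusp6 passed in both drinks. Dusp4 at 0.00 and Dusp5 at 0.04, also looked up then, did not pass averaged over drinks. The count of higher genes was 5 without replicate 1 or 2 of wild type on water, replicate 2 or 4 of wild type on bicarbonate, replicate 3 of IRR(-/-) on water, or replicate 1, 2 or 4 of IRR(-/-) on bicarbonate, each left out alone.

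**Figure D5:**
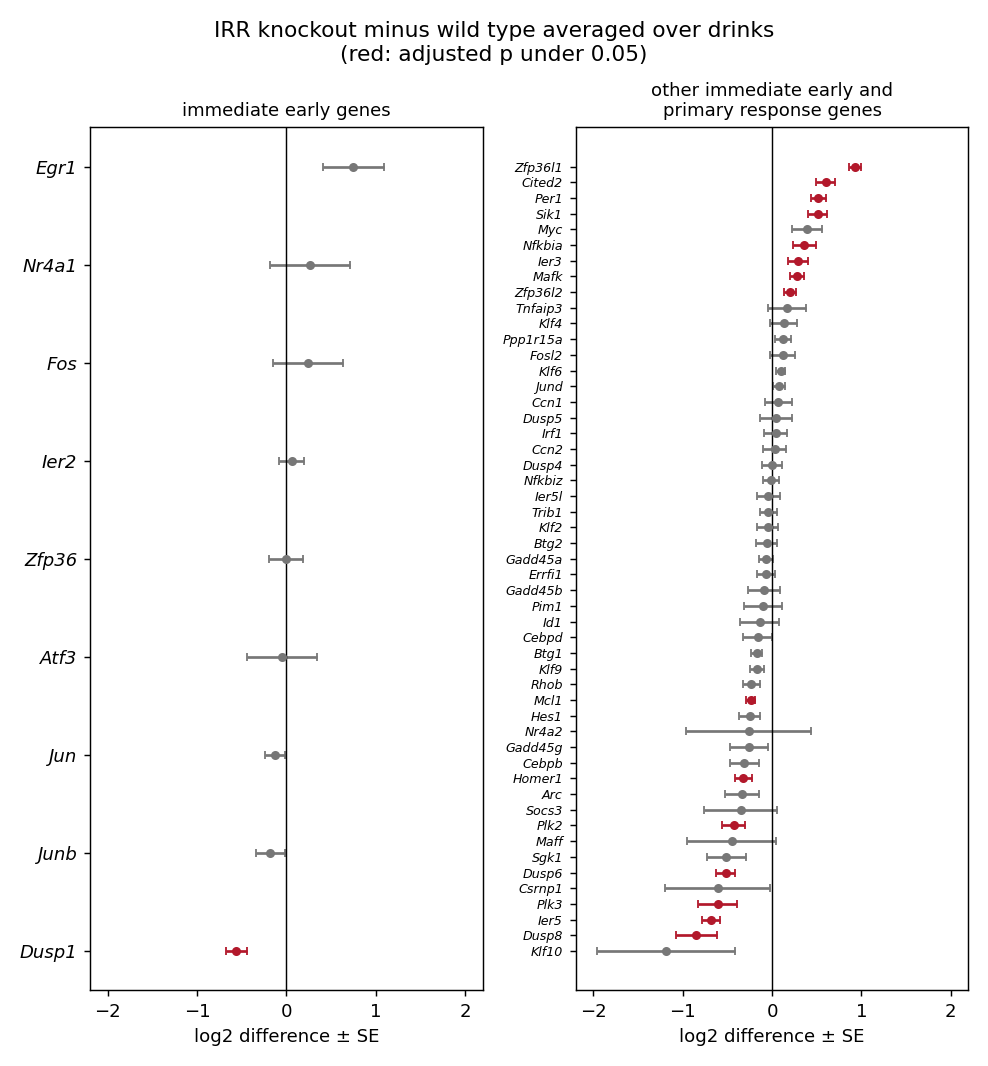
Log2 difference of IRR(-/-) minus wild type averaged over drinks, with its SE (limma), for the 9 immediate early genes and 51 other immediate early and primary response genes, each sorted by value. Red points have an adjusted p under 0.05, namely 1 of 9 (Dusp1) and 15 of 51.

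Of 36 listed upstream kinases and factors, 33 were in the table and all 33 were tested. Averaged over drinks, 8 were higher in IRR(-/-), 8 were lower and 17 did not pass, where 15.1% of all genes were higher and 18.5% were lower. The lower count was 5 without wild type on water replicate 3. The RSK kinase gene Rps6ka1 fell to 5.18 RPKM in IRR(-/-) on water, against 8.16 RPKM in wild type, and to 5.03 RPKM on bicarbonate, against 9.36 RPKM (averaged -0.74 ± 0.11, adjusted p = 0.000162 by limma). The CREB coactivator gene Crtc2 rose (0.50 ± 0.08, adjusted p = 0.000162), as did the MAPK gene Mapk3 (0.26 ± 0.05, adjusted p = 0.00113). Bicarbonate loading passed for 0 of 33 in either genotype, where 0.0232% of all genes passed in IRR(-/-) and 0.139% in wild type (limma). Raw p-values were under 0.05 for 3 of 33 in IRR(-/-), beside 7.99% of all genes, and for 7 of 33 in wild type, beside 12.0% of all genes.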

How the data were processed

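RNA from 16 mouse kidneys, 4 per group, was measured as 1 library each. The authors deposited RPKM per gene in 1 table, and the submitters' processing notes list Salmon 1.5.2, edgeR 3.34.0 and 2 builds, mm10 and GRCm39, without saying what each was used for, and leave the annotation behind the RPKM values not given in the sources used here. The values do not give whole reads, so counting error has no interval. All 13430 gene IDs matched a symbol in GENCODE M21 (GRCm38), used for symbols and positions.

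The labels for genotype and treatment set the groups. Genes with at least 0.5 RPKM in at least 4 libraries were tested (12943, with 487 set aside) by limma 3.58.1 (R 4.3.3), using log2(RPKM + 0.1) and trended, robust variance, in 1 fit of the 4 group means with 12 residual degrees of freedom. P-values are two-sided and were adjusted by Benjamini-Hochberg over all genes tested, with a threshold of 0.05. The comparisons were genotype within each drink, drink within each genotype, both averaged, and the interaction. The fit was tested on simulated data. Pairs of members were compared by Pearson's r and Spearman's rho of deviations from group means, with 100000 permutations within groups. An exact 0 can be a failed estimate and is given as listed at 0.

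All members were described. Of the lists, up to 4 genes per comparison with the smallest p past the threshold were named, or up to 3 with a raw p under 0.05 where none passed, and by likeness the 10 genes with the highest and the 5 with the lowest r. Some genes that these rules name are not reported here. The members and lists were chosen with earlier results of these data known. Alternatives were a pseudocount of 1, no filter, no trended or robust variance, median-of-ratios and quantile scaling, the replicate number as a block, removal of the trend with length and GC content (loess, span 0.5), the compared groups alone and each library left out. The alternatives for the lists were added after seeing the data.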

Additional observations from a re-analysis of the deposited data

Results flagged for a closer look

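Of 36 sets of 4 libraries, 1 for each of 9 genes in each of 4 groups, 4 held a library far from the other 3, where the gap to its nearest neighbour, as a share of the range of the group, was past Dixon's critical value. Chance flags about 1 in 20 such sets. Fos had 2.29 RPKM in wild type on bicarbonate replicate 1, where its group otherwise had 0.533 to 0.692 RPKM. Atf3 had 1.66 RPKM in wild type on bicarbonate replicate 3, against 0.455 to 0.562 RPKM. That library also held the highest Jun, Zfp36, Ier2 and Dusp1 of its group. Atf3 had 0.887 RPKM in wild type on water replicate 2, against 0.419 to 0.431 RPKM. Dusp1 had 22.2 RPKM in IRR(-/-) on bicarbonate replicate 2, against 15.2 to 16.2 RPKM. Without this library the difference from wild type on bicarbonate passed the threshold (log2 difference -0.58, adjusted p = 0.0365 by limma). Over all alternatives that adjusted p ran up to 0.197 (limma). No cause of these values was tested.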

How the results depend on the processing

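Over 63 member differences and 1197 alternatives, 1114 kept their direction and side of the threshold, 0 lost a call, 3 gained one and 80 changed sign. Dusp1 kept its call on water (adjusted p up to 0.0446) and averaged over drinks (up to 0.00609) under each alternative. The 3 gained calls came without 1 library, namely Egr1 without IRR(-/-) on water replicate 4, on water (1.52) and averaged (0.97), and Dusp1 on bicarbonate without IRR(-/-) on bicarbonate replicate 2 (-0.58). With each library left out in turn, 1 to 2 members were called between genotypes on water and averaged over drinks, and 0 to 1 on bicarbonate.

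No sign change touched a called value, and the cause of each was not tested. With a pseudocount of 1, Atf3 was -0.008 for bicarbonate in IRR(-/-) and 0.01 for genotype averaged, and Nr4a1 was -0.003 for genotype averaged. With quantile scaling, Atf3 was -0.04 and 0.004 in these comparisons and Zfp36 was 0.01 for genotype averaged, as with median-of-ratios scaling (0.01). With the length and GC trend removed, Jun was -0.04 and Zfp36 -0.02 for genotype on water. The signs of 26 differences changed in at least 1 alternative. Leaving out 1 library at a time gave these ranges for them. For bicarbonate in IRR(-/-), Fos ran from -0.63 to 0.20, Junb from -0.29 to 0.06 and Atf3 from -0.41 to 0.43. For bicarbonate in wild type, Fos ran from -0.58 to 0.06, Jun from -0.04 to 0.24, Junb from -0.29 to 0.01 and Egr1 from -0.11 to 0.38. For bicarbonate averaged, Fos ran from -0.43 to 0.02, Jun from -0.10 to 0.04, Atf3 from -0.008 to 0.41 and Ier2 from -0.08 to 0.05. For genotype on water, Fos ran from -0.17 to 0.65, Jun from -0.05 to 0.09, Atf3 from -0.28 to 0.57 and Zfp36 from -0.07 to 0.07. For genotype on bicarbonate, Fos ran from -0.13 to 0.60, Atf3 from -0.61 to 0.13 and Zfp36 from -0.33 to 0.20. For genotype averaged, Atf3 ran from -0.26 to 0.16, Ier2 from -0.005 to 0.12, Nr4a1 from -0.16 to 0.45 and Zfp36 from -0.15 to 0.11. For the interaction, Fos ran from -0.48 to 0.34, Junb from -0.13 to 0.22, Atf3 from -0.81 to 0.04 and Zfp36 from -0.34 to 0.18.

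Counts over all genes for bicarbonate depended on the processing. In wild type, 18 genes became 34 with quantile scaling, 2 with the replicate number as a block, 11 with the length and GC trend removed, 5 with the compared groups alone and 2 to 82 with 1 library left out, the highest without wild type on bicarbonate replicate 4. Averaged over genotypes, 57 became 36 without trended or robust variance, 29 under the replicate block, and 17 to 95 with 1 library left out. For the interaction, 2 became 1 with a pseudocount of 1, 4 without trended or robust variance and 1 to 5 with 1 library left out. Replicate numbers did not pair the libraries. Same-numbered libraries had correlations of -0.0975 to 0.105, over 0.1 for 2 of 24 pairs, and the block changed no call of a member. Of the other immediate early genes, 5 in place of 8 were higher in IRR(-/-) averaged over drinks with the replicate number as a block or without trended or robust variance.

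Depth is unknown, and at levels near 1 RPKM (Fos, Nr4a1, Zfp36 and Atf3) the spread between mice limits what 4 libraries per group can show.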

Other observations

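Stress genes outside the immediate early response were described from 2 further lists. For the heat shock and chaperone list, 13 of 14 genes were tested, and in IRR(-/-) averaged over drinks 3 were higher, 7 were lower and 3 did not pass (limma, where 33.7% of all genes passed). The mitochondrial chaperonin partners moved in opposite directions, Hspe1 with 304 RPKM in IRR(-/-) and 198 RPKM in wild type on water (averaged log2 difference 0.67, adjusted p = 2.55e-06), and Hspd1 with 196 RPKM in IRR(-/-) and 270 RPKM in wild type on water (-0.43, adjusted p = 2.26e-06). Dnajb1, a cochaperone gene of the heat shock response, fell by 0.43 (adjusted p = 0.0046). Of 16 tubule injury and hypoxia genes, 2 were higher, 2 were lower and 12 did not pass in the same comparison, with Clu at -0.52 (adjusted p = 4.65e-05) and Lcn2 at 0.75 (adjusted p = 0.0406). Bicarbonate passed for none of either list in either genotype (limma), with raw p-values under 0.05 for 0 of 13 and 1 of 16 in IRR(-/-), beside 7.99% of all genes, and for 1 of 13 and 4 of 16 in wild type, beside 12.0% of all genes.

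Nr4a2, a close relative of Nr4a1 on the list of other immediate early genes, was singled out after its values were seen. It had 18.6 RPKM in wild type on water replicate 3 and 0.13 to 0.972 RPKM in the other 15 libraries. In that library Fos had 1.46, Egr1 5.09, Junb 6.93 and Jun 11.0 RPKM, each the highest of its group. Nr4a1 had 0.947 RPKM there. The highest Nr4a1, Atf3, Ier2, Dusp1 and Zfp36 of the group were in other libraries.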
